A study of Caenorhabditis elegans with 6 samples.

Results

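The expression of 5 enzyme genes of intermediary metabolism was followed in *C. elegans* that lack or overexpress the bHLH transcription factor HLH-11. The genes are *pck-1*, *adh-1*, *bcat-1*, *smd-1* and *gas-1*. They were taken by name from the deposited table, and all 5 were found among its 85 genes by matching WormBase identifiers to symbols. RNA had been extracted from whole, synchronized young adults, about 2000 per sample, grown at 20 °C on *E. coli* OP50. Each genotype was sequenced in 2 libraries. Wild-type animals were the N2 strain, and the N2 background is also given for the other groups. The *hlh-11* KO animals are labelled knock-out, and the study describes its knockout as a CRISPR/Cas9 allele in which part of the second exon was replaced, causing a frameshift. The *hlh-11* OE animals are labelled over-expression, and the sources used here do not give the transgene or promoter that drives *hlh-11* in the sequenced worms. *hlh-11* itself was not analysed here, so the genotypes rest on the labels.

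These enzymes sit at separate points of metabolism. Phosphoenolpyruvate carboxykinase, encoded by *pck-1*, turns oxaloacetate into phosphoenolpyruvate, the committed step from the TCA cycle towards gluconeogenesis. In worms it can act downstream of the glyoxylate cycle, which lets carbon from fat be made into sugar. Alcohol dehydrogenase, encoded by *adh-1*, interconverts alcohols and aldehydes with NAD. The branched-chain aminotransferase of *bcat-1* takes the amino group from leucine, isoleucine and valine, the first step of their breakdown. S-adenosylmethionine decarboxylase, encoded by *smd-1*, makes the aminopropyl donor for spermidine and spermine. *gas-1* encodes a core subunit of mitochondrial complex I, the NADH dehydrogenase of the respiratory chain, and its loss makes worms hypersensitive to volatile anaesthetics.

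Against the wild type, all 5 enzyme genes were raised in *hlh-11* KO worms, and 4 of them were lowered in the OE worms. The KO/wild-type ratio of mean levels was 1.98 for *adh-1*, 1.93 for *pck-1*, 1.41 for *smd-1*, 1.31 for *gas-1* and 1.30 for *bcat-1*. In OE the ratio was 0.521 for *pck-1*, 0.637 for *adh-1*, 0.707 for *smd-1*, 0.795 for *bcat-1* and 0.823 for *gas-1*, where *gas-1* did not pass the test. The deposited table is a selection, since for all 85 of its genes the wild-type mean falls between the KO mean and the OE mean. That each gene moved in opposite directions in KO and OE was therefore fixed by how the table was made, though not which way it moved, and the tests below describe these genes within that selection. The selection also appears to favour change, since 80 of all 85 genes passed the test in KO and 76 in OE, in either direction. The tests are therefore no independent evidence of an opposite response, nor that a gene changed. Their adjustment covers only these 85 genes. By the same test, 70.6% of all 85 genes were higher and 23.5% lower in KO, beside 5 and 0 of the 5 enzyme genes. In OE 60% of all genes were lower and 29.4% higher, beside 4 and 0 of the enzyme genes. Both KO libraries exceeded both wild-type libraries in 70.6% of the genes, both OE libraries were below both wild-type libraries in 69.4%, and 69.4% met both conditions, as did all 5 enzyme genes. With shares this high, the counts say nothing particular about the enzyme genes. In bulk RNA of whole worms, less RNA per cell and fewer cells of a type cannot be told apart.

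Values are in RPKM, that is, reads scaled to the length of the gene and to the size of the library. Each RPKM value corresponded to a whole number of reads for a single total per library, from which totals of 16538554 to 24023096 reads were recovered. The enzyme genes held between 348 reads, for *adh-1* in OE replicate 1, and 5823 reads, for *bcat-1* in KO replicate 2. Changes were tested with limma on log2(RPKM + 0.5) across all 6 libraries, with p-values adjusted by Benjamini-Hochberg over the 85 genes and a threshold of 0.05. A log2 fold change is the difference between group means on that scale. The model assigned every gene the same pooled SD of 0.16, so each log2 fold change against the wild type has a standard error of 0.16.

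**Figure D1:**
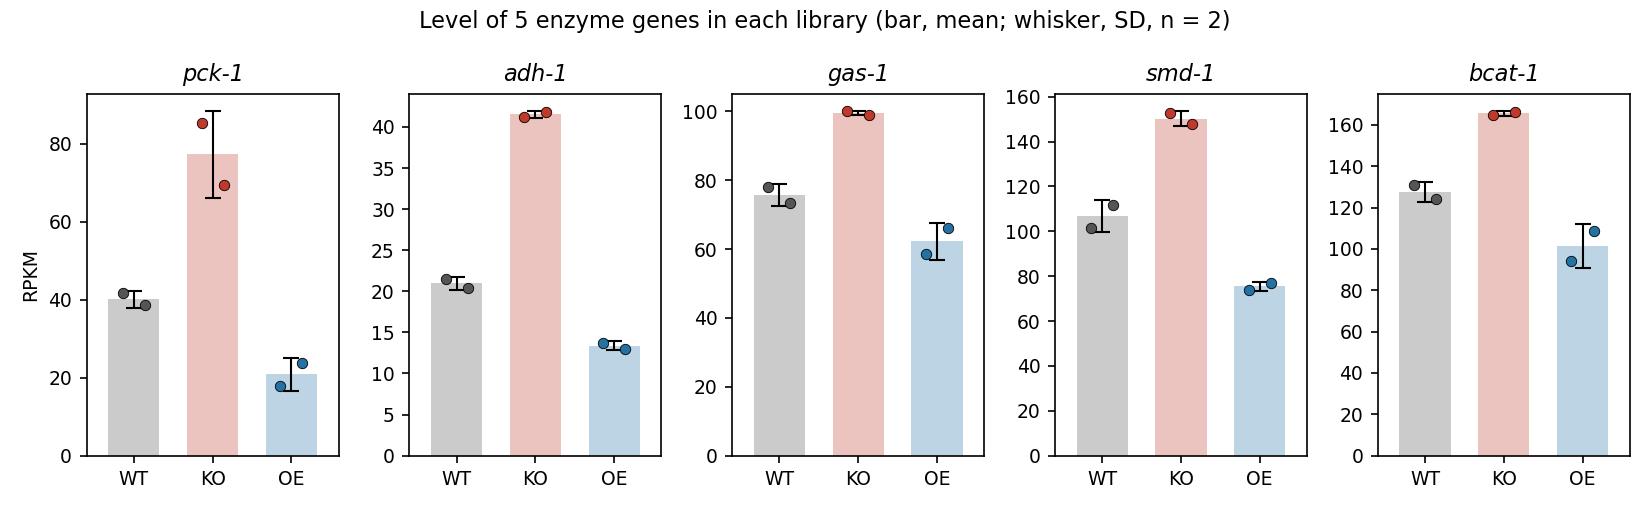
RPKM (vertical axes, each from 0) of the 5 enzyme genes in wild-type (WT), KO and OE worms. Points are single libraries, bars are means and whiskers are SDs of 2 libraries. In every gene both KO points lie above and both OE points lie below the wild-type points.

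*pck-1* lies on chromosome III of WBcel235 from 62888 to 66260, on the minus strand, with 5 exons and no overlapping annotated gene. Its level was 41.7 and 38.5 RPKM in the wild-type libraries, 85.2 and 69.5 RPKM in the KO libraries and 17.9 and 23.9 RPKM in the OE libraries. The 3 groups did not overlap, but the replicates of KO and of OE stood far apart. KO replicate 1 was 1.23 times KO replicate 2, and OE replicate 2 was 1.33 times OE replicate 1. These gaps were 7.99 and 6.25 times the SD that read counting alone gives, from 749 to 3244 reads per library. The mean rose from 40.1 ± 2.25 to 77.4 ± 11.1 RPKM in KO (SD, n = 2 each), a log2 fold change of 0.93 with a 95% interval of 0.62 to 1.24 (adjusted p = 3.08e-08, limma). In OE it fell to 20.9 ± 4.22 RPKM (SD, n = 2), and the log2 fold change was -0.94 with an interval of -1.25 to -0.63 (adjusted p = 3.21e-08, limma). *pck-1* thus had the lowest OE level relative to wild type of the 5 genes. Its paralog *pck-2* was not analysed here. How reads shared by such copies were counted is unknown, so the level is uncertain to that extent.

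*adh-1* lies on chromosome V from 11888248 to 11889650 on the plus strand, with 3 exons. Its level was 21.5 and 20.4 RPKM in wild type, 41.2 and 41.8 RPKM in KO and 13.8 and 12.99 RPKM in OE. The libraries of a genotype were nearly equal, with gaps of 0.345 to 0.857 times the SD of read counting. *adh-1* was the only one of the 5 whose replicates stayed below that SD in all genotypes, and it also had the fewest reads, which makes the counting SD relatively wide. The mean rose to 41.5 ± 0.454 RPKM in KO, against 20.99 ± 0.788 RPKM in wild-type worms (SD, n = 2 each), with a log2 fold change of 0.97 with a 95% interval of 0.66 to 1.28 (adjusted p = 9.67e-09, limma). The OE level of 13.4 ± 0.541 RPKM (SD, n = 2) was lower than the wild-type level by a log2 fold change of -0.63, with an interval of -0.94 to -0.32 (adjusted p = 1.53e-04, limma). The last 70 bases of the gene overlap *sodh-2*, another dehydrogenase gene, on the opposite strand. The sources used here do not say whether counting used the strand, so reads there could come from either gene.

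*bcat-1* lies on chromosome X from 12877480 to 12880328 on the plus strand, with 6 exons and a non-coding RNA gene inside an intron on the opposite strand. It was the most abundant of the 5 genes, at 131 and 124 RPKM in wild type, 165 and 166 RPKM in KO and 94.0 and 109 RPKM in OE. The KO libraries agreed closely, whereas the OE libraries were 6.50 times the SD of read counting apart. The mean rose from 128 ± 4.80 to 166 ± 1.25 RPKM in KO (SD, n = 2 each), with a log2 fold change of 0.38 (95% interval 0.07 to 0.68, adjusted p = 0.0195, limma). In OE it fell to 101 ± 10.5 RPKM (SD, n = 2), and the log2 fold change was -0.33 (95% interval -0.64 to -0.02, adjusted p = 0.0405, limma). Leaving out any 1 library other than OE replicate 2 took this OE change past 0.05 (adjusted p = 0.0546 to 0.126, limma), as did a replicate block (adjusted p = 0.0645) and a fit of wild type and OE alone (adjusted p = 0.0593).

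*smd-1*, on chromosome I from 14048094 to 14051010 on the minus strand, has 3 annotated transcripts. It was at 102 and 112 RPKM in wild type, 153 and 148 RPKM in KO and 74.1 and 76.9 RPKM in OE. Here the wild-type libraries differed most, by 4.23 times the SD of read counting, and both mutant pairs were within 1.73 times that SD. The mean rose from 107 ± 7.07 to 150 ± 3.51 RPKM in KO and fell to 75.5 ± 2.005 RPKM in OE (SD, n = 2 each). The log2 fold changes were 0.49 in KO (95% interval 0.18 to 0.80, adjusted p = 0.00269) and -0.50 in OE (95% interval -0.80 to -0.19, adjusted p = 0.00267), both from limma. Both passed in each of the 14 alternative analyses that did not divide by another gene. A short coding gene, *F47G4.14*, is annotated inside it on the same strand over 54 exon bases, and reads there cannot be assigned to one of them.

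*gas-1* lies on chromosome X from 15586786 to 15590397 on the minus strand, with 6 exons. Its level was 78.0 and 73.5 RPKM in wild type, 99.999 and 99.1 RPKM in KO and 58.5 and 66.1 RPKM in OE. The groups did not overlap, and the KO libraries were within 0.367 times the SD of read counting, whereas the OE libraries were 4.01 times that SD apart. Its last exon shares 26 bases with *K09A9.6* on the opposite strand. The mean rose from 75.8 ± 3.22 to 99.5 ± 0.666 RPKM in KO (SD, n = 2 each), a log2 fold change of 0.39 (95% interval 0.08 to 0.70, adjusted p = 0.0151, limma). In OE it was 62.3 ± 5.35 RPKM (SD, n = 2), and the log2 fold change of -0.28 did not pass (95% interval -0.59 to 0.03, adjusted p = 0.0790, limma). With the spread of *gas-1* alone the OE value passed narrowly (adjusted p = 0.0487, linear model without empirical Bayes), as it did with voom on the recovered reads (adjusted p = 0.0255, limma) and without OE replicate 2 (adjusted p = 0.0218, limma). The KO changes of *gas-1* and of *bcat-1* did not pass without wild type replicate 2, KO replicate 1 or KO replicate 2, with adjusted p-values of 0.0636 to 0.0871 from limma. Only 3 of the 5 genes were then called in KO.

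**Figure D2:**
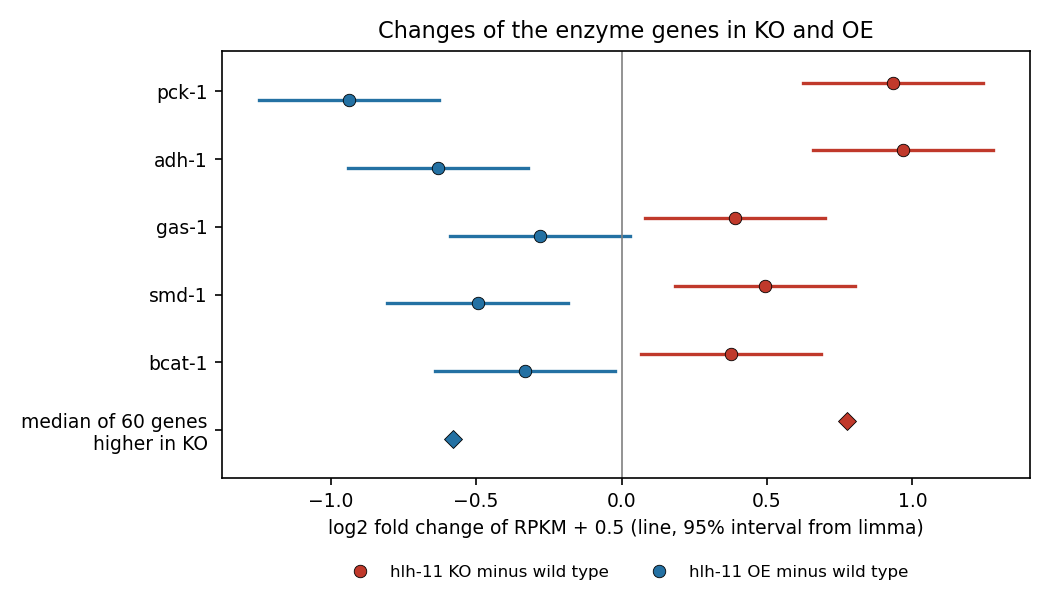
Log2 fold change (horizontal axis, RPKM + 0.5) of each enzyme gene in KO (red) and OE (blue) worms against the wild type. Lines are 95% intervals from limma, and diamonds are the medians, 0.77 and -0.58, of the 60 genes of the table with a higher KO mean. *pck-1* and *adh-1* lie to the right of the KO diamond, and the interval of *gas-1* in OE crosses 0.

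The 5 genes fall on both sides of the table's typical change. The median log2 fold change of the 60 genes with a higher KO mean was 0.77 in KO and -0.58 in OE, and over the 5 enzyme genes it was 0.49 and -0.50. Ordered from the largest KO change among those 60 genes, *adh-1* was at place 18 and *pck-1* at place 20, whereas *smd-1* was at 45, *gas-1* at 56 and *bcat-1* at 57. Ordered from the most negative OE change, *pck-1* was at place 15, *adh-1* at 27, *smd-1* at 35, *bcat-1* at 49 and *gas-1* at 55. All 5 differed between KO and OE directly, a comparison whose means use no wild-type library, with log2 differences from 0.67 for *gas-1* to 1.87 for *pck-1*. In that contrast 70.6% of all genes were higher and 29.4% lower in KO, beside 5 and 0 of the enzyme genes. All 85 genes passed it, and since the table was selected for KO and OE means on opposite sides, this comparison adds no independent evidence.

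Whether a gene changed by unlike amounts in KO and OE was tested with the sum of both log2 changes, which is 0 for equal and opposite changes. None of the 5 enzyme genes passed, at an adjusted p of 0.690 to 0.994 from limma, against 5.88% of genes above 0 and 5.88% below 0 in the table. At an unadjusted p under 0.05 the count was 0 of the 5 and 16 of all 85 genes with the pooled spread. With each gene's own spread it was 1 of the 5, *adh-1*, and 8 of all 85 genes, and 0 of the 85 passed after adjustment. The sum was -0.00 for *pck-1*, with a 95% interval of -0.54 to 0.53, and -0.00 for *smd-1*, with an interval of -0.54 to 0.53. For *adh-1* it was 0.34 (-0.20 to 0.87), the largest of the 5, with a KO change above the OE change in size. These intervals, which rest on the pooled SD, do not exclude unequal changes of up to their bounds.

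Levels, which RPKM scales by gene length, kept 1 order in all 6 libraries. *bcat-1* was highest, followed by *smd-1*, *gas-1*, *pck-1* and *adh-1*. No neighbours in this order overlapped between their libraries within a genotype. The wild-type ratios of *bcat-1* to its neighbour *smd-1* overlapped those in KO and those in OE, which did not overlap each other. The distances of *bcat-1* from *pck-1* and *adh-1* were smallest in KO and largest in OE. *bcat-1* was 1.29 and 1.11 times *smd-1* in the wild-type libraries, 1.08 and 1.13 times in KO and 1.27 and 1.42 times in OE. *bcat-1* was 3.14 and 3.22 times *pck-1* in wild type, 1.93 and 2.40 times in KO and 5.25 and 4.56 times in OE. Against *adh-1* it was 6.08 times in both wild-type libraries, 3.998 and 3.98 times in KO and 6.83 and 8.38 times in OE.

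A ratio of genes within a library does not depend on how that library was scaled. *gas-1* had the smallest difference between KO and OE of the 5 and was taken, after the values were seen, as the common denominator. *bcat-1* kept a nearly fixed ratio to it, 1.68 and 1.69 in wild type, 1.65 and 1.68 in KO and 1.61 and 1.65 in OE. *pck-1* was at 0.534 and 0.524 of *gas-1* in wild type, 0.852 and 0.701 in KO and 0.306 and 0.361 in OE. *adh-1* was at 0.276 and 0.278 in wild type, 0.412 and 0.422 in KO and 0.235 and 0.197 in OE. The ratio of *smd-1* was 1.30 and 1.52 in wild type and 1.53 and 1.49 in KO, which overlap, and 1.26 and 1.16 in OE.

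**Figure D3:**
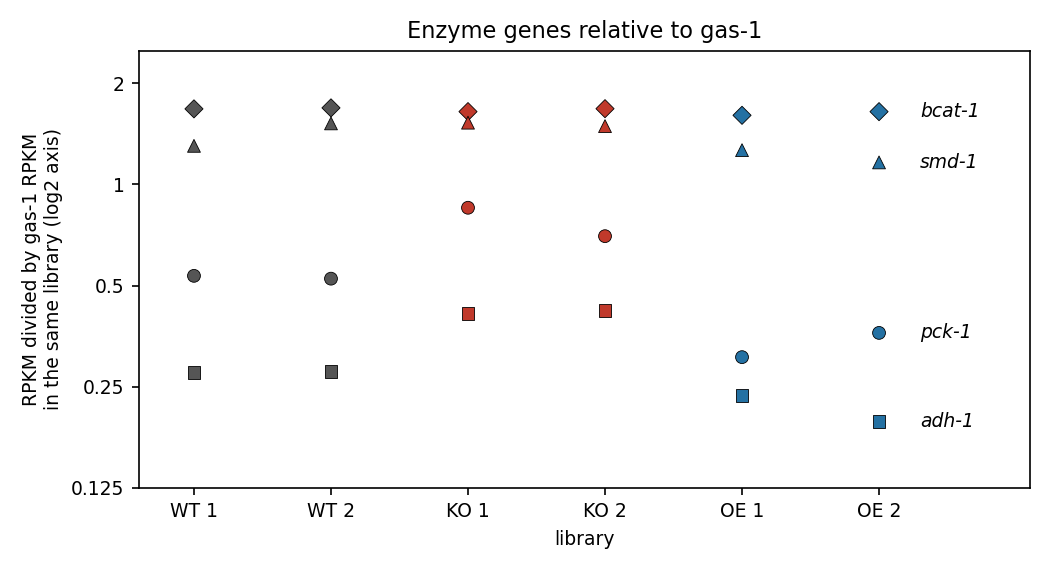
RPKM of 4 enzyme genes divided by that of *gas-1* in the same library (vertical axis, log2 scale), for the 2 libraries of wild type (WT, grey), *hlh-11* KO (red) and *hlh-11* OE (blue). The ratio of *bcat-1* stays between 1.61 and 1.69, and those of *pck-1* and *adh-1* are highest in KO and lowest in OE.

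Differences in the mean log2 ratio to *gas-1* were taken with 0.5 added to each RPKM, which leaves a slight dependence on library scaling. Against wild type, the ratio of *adh-1* differed by 0.58 in KO and by -0.35 in OE, and that of *pck-1* by 0.54 and -0.66. For *smd-1* the differences were 0.10 and -0.21, and for *bcat-1* they were -0.02 and -0.05. Since *gas-1* was chosen as the gene that differed least between KO and OE, a rise of the others against it in KO relative to OE was set by that choice. These ratios are therefore a description, with no test, and any change of *gas-1* itself is lost in them.

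The 5 genes differed in how closely their replicates matched. The SD within groups of each gene alone, on 3 residual degrees of freedom, was 0.05 for *adh-1*, 0.06 for *smd-1*, 0.08 for *gas-1*, 0.09 for *bcat-1* and 0.21 for *pck-1*. From the smallest, these were places 2, 7, 13, 20 and 73 among the 85 genes. With its own spread each enzyme gene passed in KO (adjusted p = 0.00966 to 0.0339) and in OE (adjusted p = 0.0138 to 0.0487) in a linear model without empirical Bayes, as did 79 and 67 of all 85 genes in either direction. The very small p-values of *pck-1* above rest on the pooled SD. With its own spread the adjusted p was 0.0320 in KO and 0.0333 in OE, the log2 fold changes being the same. An exact permutation test of 2 libraries against 2 cannot give a two-sided p below 0.333.

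**Figure D4:**
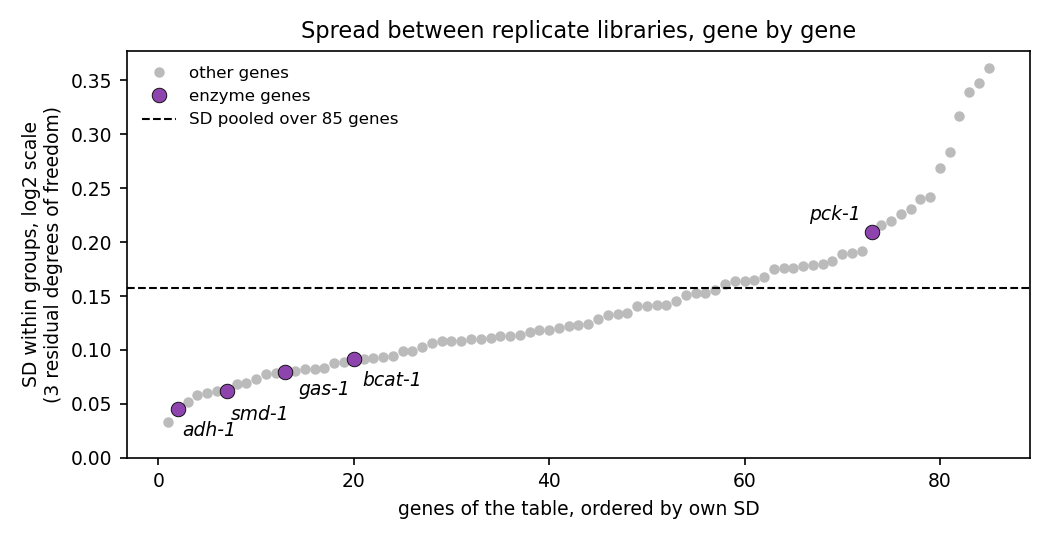
SD within groups on the log2(RPKM + 0.5) scale (vertical axis) for all 85 genes, ordered from the smallest. The dashed line is the pooled SD of 0.16 that limma used, above *adh-1*, *smd-1*, *gas-1* and *bcat-1* and below *pck-1*.

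The pattern of each gene over the 6 libraries was compared with the other genes of the table after centring on the wild-type mean. Likeness was the root mean square difference in log2(RPKM + 0.5), which is a description. *gas-1* and *bcat-1* were among the nearest of each other, at 0.03, with the ABC transporter gene *haf-9* at 0.03 from *gas-1* and 0.04 from *bcat-1*. The nearest to *smd-1* were the cathepsin A homolog *ctsa-1.2* at 0.04 and the galectin gene *lec-10* at 0.08. *pck-1* was nearest to *F22B7.9* and the galectin gene *lec-9*, both at 0.10. *adh-1* was nearest to the major sperm protein gene *msp-3* at 0.07 and the aspartyl protease gene *asp-4* at 0.09. The median difference from all other genes was 0.43 to 0.53. Many genes of the table share 1 direction, and how often its other genes have neighbours this close was not measured.

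Of lists of related genes, the table held only the enzyme genes themselves. The lists were matched by symbol only, so the counts are of listed names. Of these it held 1 of 26 for gluconeogenesis and glycolysis (*pck-1*) and 1 of 18 for alcohol and aldehyde dehydrogenases (*adh-1*). It also held 1 of 22 for complex I (*gas-1*) and 1 of 20 for polyamine synthesis and the methionine cycle (*smd-1*). For branched-chain amino acid breakdown it held 1 of 20 (*bcat-1*). The other genes of these pathways were not analysed here, and nothing can be said about the pathways as such. The annotated exon length was 2061 bases for *pck-1* and 2228 for *smd-1*, and the lengths recovered from the RPKM values were 2186 and 2014. For *adh-1*, *gas-1* and *bcat-1* the recovered lengths of 1323, 1661 and 1842 were closer to the annotated 1311, 1688 and 1845. A length sets the level of a gene but cancels in its fold changes.

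Sperm and cuticle collagen genes moved in the same direction as the enzyme genes, as did most of the table. Over all 85 genes, limma called 70.6% raised in KO, and for OE it called 60% lowered. With shares this high, the counts of marker genes called say nothing particular about stage or tissue. All 6 sperm genes of the table (5 of the *msp* family and *nspd-5*) were higher in KO and lower in OE by limma. Their summed level was 636 to 806 RPKM in wild type, 1288 to 1328 RPKM in KO and 417 to 489 RPKM in OE. Each of the 7 cuticle collagen genes rose in KO and 5 fell in OE, with sums of 5404 to 6024, 8018 to 8673 and 4268 to 4567 RPKM. These sums are weighted towards the most abundant collagens, such as *col-139*, with a KO log2 fold change of 0.41. The median log2 fold change of the 7 was 2.03 in KO and -0.39 in OE. Of 7 intestine markers listed, the table held 1, the intestinal actin gene *act-5*. Its level was 596 and 613 RPKM in wild type, 767 and 774 RPKM in KO and 465 and 521 RPKM in OE. By limma *act-5* was higher in KO, whereas its OE log2 fold change of -0.30 did not pass. None of the yolk, muscle and neuron markers listed was in the table, so the labelled whole-worm tissue could be checked no further. The part of stage or tissue make-up in the changes of the enzyme genes was not tested.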

How the data were processed

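Polyadenylated RNA of 6 samples was sequenced on an Illumina HiSeq2500. Clean reads had been aligned to WBcel235 (TopHat2), and the authors used DESeq2 to find differentially expressed genes. The submitters' processing notes also name FastQC 0.11.5. The sources used here do not give the counting tool, its annotation or its strand setting. The authors deposited RPKM for 85 genes in 6 columns, 2 per genotype (those headed control were taken as wild type), and all 85 identifiers matched the annotation.

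Whole reads were recovered as the single total per library and length per gene for which all 510 values were whole within 1e-06 reads. The totals rest on 4 genes whose RPKM values, with an annotated length, fitted the total of each library. The recovery was tested on simulated data. Totals and reads are inferred values.

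Models were fitted with limma 3.58.1 (R 4.3.3) to log2(RPKM + 0.5) of all 6 libraries (constant prior, two-sided, Benjamini-Hochberg over 85 genes, threshold 0.05). Ratios are of mean RPKM. The fit was tested on simulated data. The libraries of a genotype differed by more than read sampling (chi-square per degree of freedom 17.7 in wild type, 20.2 in KO and 24.1 in OE), so none was treated as 1 library deposited again. Separate cultures are not described, so the p-values reflect only how these samples spread, which may be technical.

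The members, gene lists and tests were chosen with earlier results of these data known. The text names all 5 enzyme genes, the 2 nearest genes to each and listed genes present. Alternatives were the pseudocount (0.1 or 1), a filter at a mean of 1 RPKM, limma-trend, voom, no empirical Bayes, 2 groups only, a replicate block and leaving out each library.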

Additional observations from a re-analysis of the deposited data

How the results depend on the processing

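Ratios to *gas-1* aside, the number of enzyme genes called in KO against wild type was 5 of 5 in every analysis that kept all libraries and 3 to 5 when a library was left out (3 without wild type replicate 2, KO replicate 1 or KO replicate 2). In OE it was 4, with 3 to 5 over the alternatives, as *bcat-1* was lost or *gas-1* gained. All 5 were called between KO and OE and none for unequal changes throughout. Apart from the ratios to *gas-1*, no log2 fold change against the wild type or between KO and OE changed direction. Where 1 library of a group was left, it was assumed to vary like the other groups. The sums of KO and OE changes close to 0 changed sign without passing: *pck-1* with a pseudocount of 1 (0.0032) and *smd-1* with voom (0.0073), and when a library was left out *pck-1* ranged from -0.21 to 0.20, *smd-1* from -0.14 to 0.13 and *bcat-1* from -0.063 to 0.15. Relative to *gas-1*, *bcat-1* was at -0.017 in KO.

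Deviations of same-numbered libraries correlated at -0.14 to -0.11 over the 85 genes, which gives no sign that replicate numbers pair the libraries. Such a correlation cannot show a shift common to all genes, so pairing is not excluded. With the replicate block 5 enzyme genes were called in KO and 3 in OE, without *bcat-1*, beside 79 and 73 of all 85 genes (80 and 76 without the block). With crossed numbers in fits of 2 groups, added after the data were seen, 5 and 5 were called (83 and 79 of all genes), against 5 and 3 (80 and 67) with the numbers as labelled. Rescaling by all genes of the table was not run, because they appear to have been chosen for a change.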
